A study of Mus musculus with 15 samples.

Results

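The aminoacyl-tRNA synthetase genes are 38 genes among the 58735 rows of each count table. They were chosen by name: symbols of the form of a 1-letter amino acid code followed by ARS, with or without a closing 1 or 2, plus FARSA, FARSB, EPRS and TARSL2. Of these, 21 encode cytosolic enzymes and 17 mitochondrial ones, and all 38 passed the filter on low counts. The tables use the older symbols, so that AARS, CARS, QARS and EPRS stand for the genes now called AARS1, CARS1, QARS1 and EPRS1, and TARSL2 for TARS3. Messenger RNA was sequenced in 15 libraries of cells that the labels call MDA-MB-468, a widely used human line of basal-like breast cancer. The labels name the mouse as the organism, whereas the gene symbols are human, and the values were read as human. Each of 5 groups had 3 libraries: a first and a second short hairpin RNA against SHCBP1 (shSHCBP1_1 and shSHCBP1_2), a pair of hairpins against TMEM45A (set 4 and set 2, after the column names) and a control hairpin (NC). The study's title concerns subtypes and a prognosis model of breast cancer built on disulfidptosis, a cell death tied to disulfide stress, and the comparisons ask how the transcriptome differs when either gene is targeted.

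Each aminoacyl-tRNA synthetase joins an amino acid to its transfer RNA, the step that fixes the meaning of a codon in translation. Separate nuclear genes usually encode the cytosolic and the mitochondrial enzyme for an amino acid. GARS and KARS serve both compartments. EPRS carries the glutamate and the proline enzyme in a single chain. In the cytosol a group of synthetases is held in the multisynthetase complex by the scaffold proteins AIMP1, AIMP2 and EEF1E1. Many cytosolic synthetase genes are known targets of ATF4, the transcription factor of the integrated stress response to amino acid shortage and other stresses.

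Library totals ran from 13780294 to 16484000 counts, and 3 counts corresponded to at most 0.218 CPM, the unit of reads relative to library size. Levels below are CPM scaled by TMM, given as mean ± SD of 3 libraries, and log2 fold changes, standard errors (SE) and adjusted p-values come from edgeR's quasi-likelihood test over 19051 genes. Nothing in the labels says that a group's libraries are separate cultures; the p-values rest on the spread among these libraries, which may be technical. The transcript of SHCBP1 averaged 47.1 ± 1.24 CPM in shSHCBP1_1 and 44.3 ± 1.12 CPM in shSHCBP1_2, against 44.1 ± 2.53 CPM in NC (SD, n = 3 each). Its log2 fold change was 0.10 (adjusted p = 0.412) in shSHCBP1_1 and 0.01 (adjusted p = 0.962) in shSHCBP1_2 by edgeR. SHCBP1 was thus not lower in the libraries labelled shSHCBP1, which are named by their labels here. TMEM45A averaged 17.8 ± 1.86 CPM in set 4 and 19.4 ± 0.761 CPM in set 2, against 26.6 ± 2.09 CPM in NC, and fell in both sets (log2 fold change -0.58 and -0.46). The shTMEM45A libraries are in another table than NC, so for them target and table cannot be told apart. Of 18 basal breast markers, 8 had at most 9 counts over the 3 libraries of NC and of each shSHCBP1 set, and KRT5, KRT6A and KRT16 had 0 counts in all 15 libraries, which goes against the labelled line. The summed level of the 18 markers was 185 to 201 CPM in shSHCBP1_1, 186 to 191 CPM in shSHCBP1_2, 331 to 379.6 CPM in set 4, 345 to 379 CPM in set 2 and 170.1 to 174 CPM in NC. Most of that sum was KRT8 and KRT18, keratins of simple epithelia, with 168 and 144 CPM in set 4 and 163 and 157 CPM in set 2, against 79.3 and 44.6 CPM in NC, whereas EGFR (8.25 and 9.08 CPM, against 16.3 CPM) and CDH1 (7.91 and 7.16 CPM, against 12 CPM) were lower there than in NC. Of 8 markers of embryonic kidney lines, only PAX8 was near 0, and their sum was 464 to 489.5 CPM in shSHCBP1_1, 421 to 453 CPM in shSHCBP1_2, 267 to 294 CPM in set 4, 227 to 234 CPM in set 2 and 528 to 545 CPM in NC. The part of these differences in the results below was not tested. In bulk libraries, fewer cells of a kind and less RNA per cell cannot be told apart.

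Reads of the 21 cytosolic synthetase genes made up 0.413% ± 0.00830 of all counts in shSHCBP1_1, 0.444% ± 0.00118 in shSHCBP1_2, 0.332% ± 0.00411 in set 4 and 0.352% ± 0.00602 in set 2, against 0.397% ± 0.00228 for NC (SD, n = 3 each). The 17 mitochondrial genes held 0.101% ± 0.00196 in shSHCBP1_1, 0.0963% ± 0.00170 in shSHCBP1_2, 0.0626% ± 0.00139 in set 4 and 0.0616% ± 0.000402 in set 2, against 0.102% ± 0.000649 for NC. Every shTMEM45A library lay below every NC library in both shares. The shSHCBP1 libraries lay above NC in the cytosolic share. In the mitochondrial share shSHCBP1_2 lay below NC, while shSHCBP1_1 overlapped with it. These are shares of total counts, and on that scale genes of any kind shifted. The median log2 fold change over all genes tested was 0.15 in shSHCBP1_1, 0.17 in shSHCBP1_2, -0.23 in set 4 and -0.23 in set 2. That of the cytosolic synthetase genes was 0.12, 0.23, -0.35 and -0.19, so the cytosolic shares are not a change particular to synthetases.

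**Figure D1:**
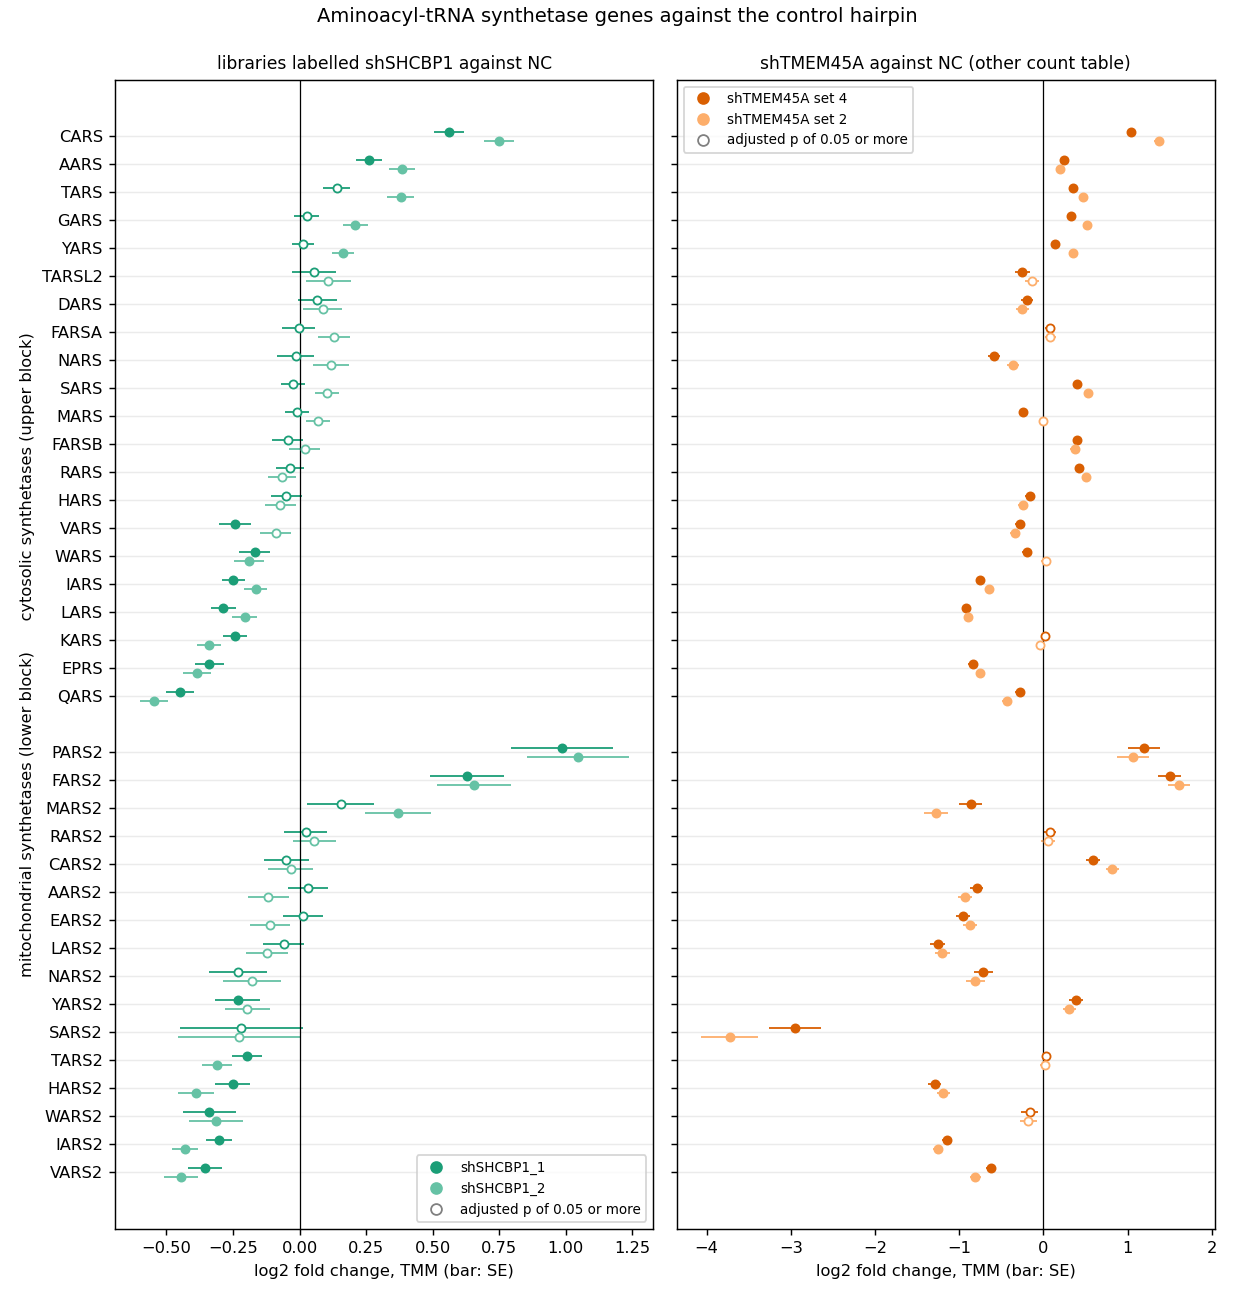
Log2 fold change of 37 of the 38 synthetase genes against NC (x axis, bars: SE), a row per gene with cytosolic genes in the upper block and mitochondrial genes in the lower. Left, the libraries labelled shSHCBP1; right, the shTMEM45A sets on a wider axis; filled points passed an adjusted p of 0.05, and SARS2 stands farthest to the left, at -2.95 in set 4 and -3.72 in set 2.

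In the libraries labelled shSHCBP1, synthetase genes changed in both directions, and by small amounts. Against NC, 4 of the 38 rose and 13 fell in shSHCBP1_1, where 9.34% of the 19051 genes tested rose and 10.5% fell. In shSHCBP1_2, 8 rose and 12 fell, where 15.6% of genes rose and 15.4% fell. In both sets together, 4 rose (8.3% of all genes) and 11 fell (9.45% of all genes). Both sets share the NC libraries. The median log2 fold change of the 38 was -0.04 in shSHCBP1_1 and -0.08 in shSHCBP1_2, beside 0.01 and 0.01 over all genes tested.

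The genes that rose in both sets were PARS2, CARS, FARS2 and AARS. CARS, the cytosolic cysteine enzyme, had 85.6, 86.7 and 85.3 CPM in shSHCBP1_1 and 101, 97.6 and 95.3 CPM in shSHCBP1_2, against 57.8, 59.2 and 57.6 CPM in NC. Every library of both sets lay above every NC library, a rise of 1.48-fold (log2 fold change 0.56, SE 0.06, adjusted p = 1.47e-08) and 1.68-fold (0.75, SE 0.06, adjusted p = 1.31e-11) by edgeR. AARS, the cytosolic alanine enzyme, had 281, 283 and 266 CPM in shSHCBP1_1 and 308, 302 and 294 CPM in shSHCBP1_2, against 234, 223 and 236 CPM in NC. Its groups did not overlap with NC either, and the log2 fold change was 0.26 (SE 0.05, adjusted p = 0.000222) and 0.38 (SE 0.05, adjusted p = 3.57e-07) by edgeR.

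The other two were genes of mitochondrial enzymes with few reads. PARS2, the mitochondrial proline enzyme, had 9.26, 9.65 and 9.62 CPM in shSHCBP1_1 and 9.20, 10.3 and 10.2 CPM in shSHCBP1_2, against 4.65, 4.97 and 4.77 CPM in NC. This was 1.98-fold (log2 fold change 0.99, SE 0.19, adjusted p = 0.000325) and 2.07-fold (1.05, SE 0.19, adjusted p = 7.68e-05) by edgeR, with no overlap. FARS2, the mitochondrial phenylalanine enzyme, had 11, 13.6 and 11.1 CPM in shSHCBP1_1 and 14, 11.6 and 10.7 CPM in shSHCBP1_2, against 7.22, 7.35 and 8.43 CPM in NC. All libraries of both sets lay above NC (log2 fold change 0.63 and 0.66, adjusted p = 0.00147 and 0.000548 by edgeR). A further 4 genes rose in shSHCBP1_2 and did not pass in shSHCBP1_1: TARS (0.38), GARS (0.21), YARS (0.16) and MARS2 (0.37), the threonine, glycine, tyrosine and mitochondrial methionine enzymes. In shSHCBP1_1 their log2 fold changes were 0.14, 0.03, 0.01 and 0.15. The MARS2 call was lost in 4 of 6 fits that left out 1 library (without NC replicate 1 or 2, or shSHCBP1_2 replicate 2 or 3; log2 fold change 0.29 to 0.45, adjusted p up to 0.139).

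**Figure D2:**
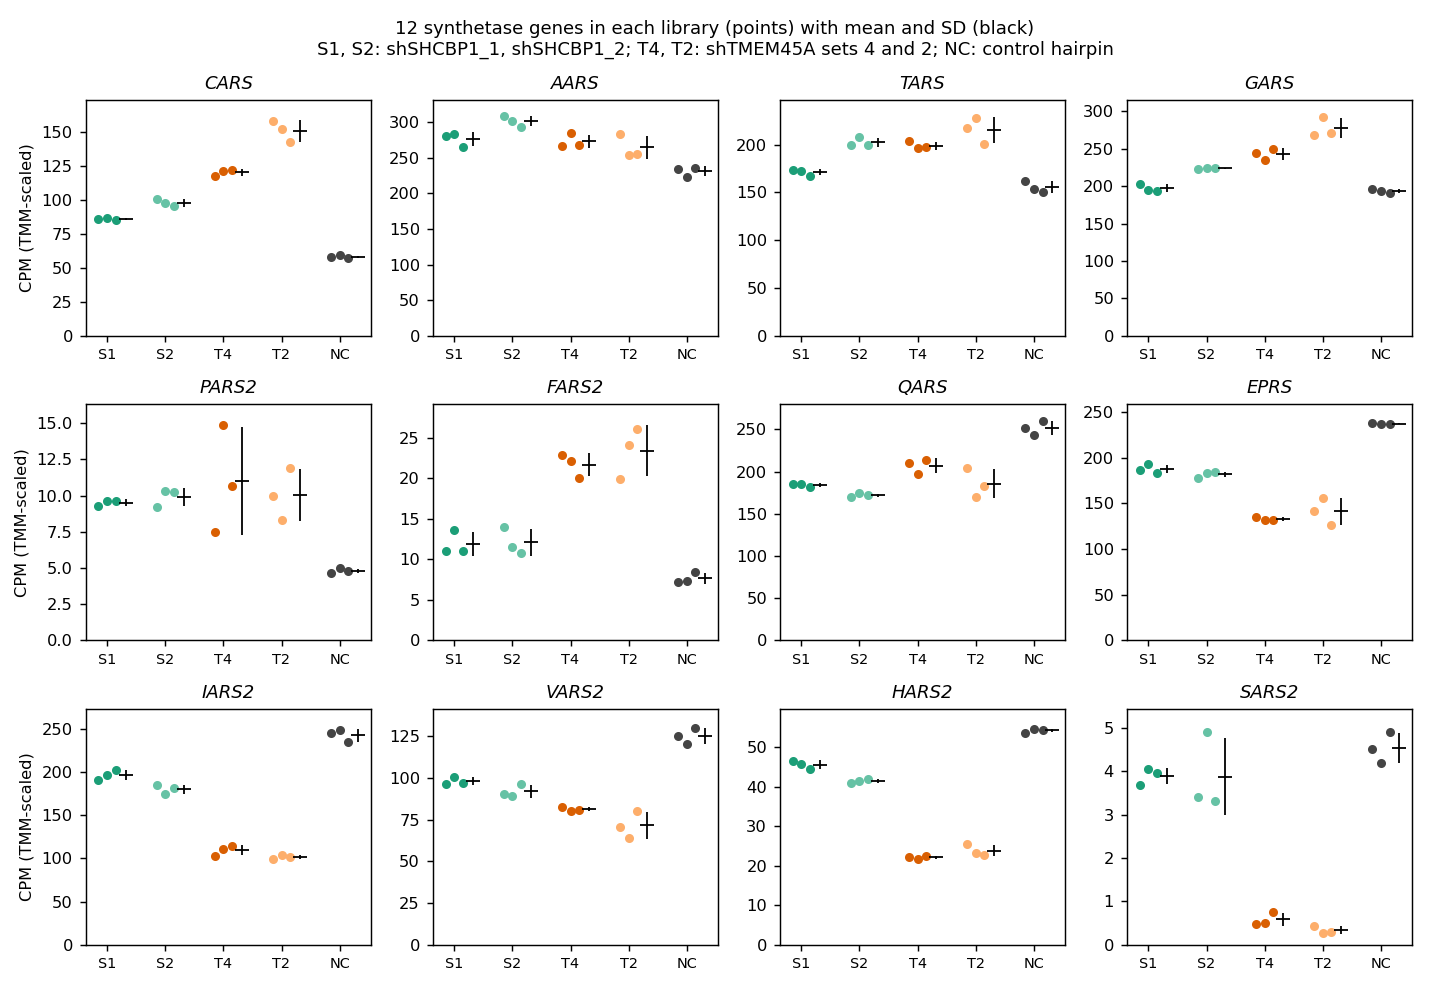
TMM-scaled CPM of 12 synthetase genes in each of the 15 libraries (points, with mean and SD beside them), on axes that start at 0. CARS lies above 85 CPM in every shSHCBP1 and shTMEM45A library, against 57.6 to 59.2 CPM in NC, while SARS2 lies under 1 CPM in both shTMEM45A sets.

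The largest falls, by the mean of both shSHCBP1 sets, were those of QARS, VARS2, IARS2 and EPRS. QARS, the cytosolic glutamine enzyme and a member of the multisynthetase complex, had 186, 185 and 181 CPM in shSHCBP1_1 and 170.3, 174 and 172 CPM in shSHCBP1_2, against 251, 243 and 259.5 CPM in NC. No library of either set reached the NC range (log2 fold change -0.45, SE 0.05, adjusted p = 3.03e-07 in shSHCBP1_1 and -0.55, SE 0.05, adjusted p = 3.47e-09 in shSHCBP1_2, by edgeR). EPRS had 186, 193 and 184 CPM in shSHCBP1_1 and 178, 183 and 184 CPM in shSHCBP1_2, against 238, 237 and 236 CPM in NC. It too fell without overlap (-0.34 and -0.39, adjusted p = 2.75e-05 and 1.77e-06 by edgeR).

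Among the mitochondrial enzymes, IARS2, for isoleucine, had 191, 196 and 203 CPM in shSHCBP1_1 and 184, 174 and 181 CPM in shSHCBP1_2, against 245, 249 and 234 CPM in NC. VARS2, for valine, had 96.6, 101 and 96.7 CPM in shSHCBP1_1 and 90.5, 89.2 and 96.4 CPM in shSHCBP1_2, against 125, 120.3 and 130.1 CPM in NC. Neither gene overlapped with NC, and their log2 fold changes were -0.30 and -0.43 for IARS2 and -0.35 and -0.45 for VARS2 (adjusted p between 6.79e-08 and 0.000122 by edgeR). HARS2, the mitochondrial histidine enzyme, fell by 0.25 and 0.39 on the log2 scale, whereas its neighbour in function HARS, the cytosolic histidine enzyme, stood at -0.05 and -0.07 (adjusted p = 0.61 and 0.367). The remaining falls in both sets were KARS (-0.24 and -0.34), LARS (-0.29 and -0.21), IARS (-0.25 and -0.16), TARS2 (-0.20 and -0.31), WARS2 (-0.34 and -0.31) and WARS (-0.17 and -0.19), which are enzymes for lysine, leucine, isoleucine, threonine and, in both compartments, tryptophan. VARS (-0.24) and YARS2 (-0.23) fell in shSHCBP1_1. Leaving out 1 library at a time, the WARS call was lost in 6 of 6 fits in shSHCBP1_1 (adjusted p 0.0639 to 0.155) and in 3 of 6 in shSHCBP1_2 (without NC replicate 3 or shSHCBP1_2 replicate 1 or 2; up to 0.0573). The WARS2 call was lost in 4 of 6 fits in each set: without NC replicate 2 or 3 in both, without shSHCBP1_1 replicate 1 or 3 (adjusted p up to 0.0657) and without shSHCBP1_2 replicate 2 or 3 (up to 0.0749). In shSHCBP1_1 the YARS2 call was lost in 5 of 6 fits, all but that without NC replicate 2 (up to 0.208), and the TARS2 call in 2, without NC replicate 3 or shSHCBP1_1 replicate 1 (up to 0.0824).

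Of the 8 synthetases of the multisynthetase complex, 5 fell and 0 rose in each shSHCBP1 set: EPRS, IARS, KARS, LARS and QARS. The median of the 8 was -0.25 in shSHCBP1_1 and -0.19 in shSHCBP1_2, beside 0.01 in each over all genes tested. DARS, MARS and RARS, the complex's enzymes for aspartate, methionine and arginine, did not pass in either set; their log2 fold changes lay between -0.07 and 0.09. Of the 3 scaffold genes of the complex, AIMP2 rose in both sets. It had 20.8, 23.9 and 22 CPM in shSHCBP1_1 and 25.6, 27.2 and 26.2 CPM in shSHCBP1_2, against 13.7, 14.1 and 11.3 CPM in NC, a rise of 1.71-fold and 2.02-fold (adjusted p = 2.47e-05 and 1.08e-07 by edgeR). AIMP1 rose in shSHCBP1_1 (0.18) and did not pass in shSHCBP1_2 (0.16, adjusted p = 0.0509 by edgeR), and EEF1E1 rose in shSHCBP1_2 (0.30) and did not pass in shSHCBP1_1 (0.19, adjusted p = 0.15 by edgeR). Under RLE scaling 1 of the 3 passed in each set. Of the 12 synthetase genes listed as ATF4 targets, 2 rose and 4 fell in shSHCBP1_1, and 5 rose and 4 fell in shSHCBP1_2. Their medians were -0.01 and 0.11. By structural class, 1 of 18 class I genes rose and 9 fell in shSHCBP1_1, and 3 rose and 7 fell in shSHCBP1_2. Of 19 class II genes, 3 rose and 3 fell in shSHCBP1_1, and 5 rose and 4 fell in shSHCBP1_2. EPRS, which carries both the glutamate and the proline enzyme, is in neither class list. The shares over all genes, beside the counts of each of these lists, were 9.34% higher and 10.5% lower in shSHCBP1_1. In shSHCBP1_2 they were 15.6% and 15.4%.

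The scaling of the libraries decided part of these calls. TMM factors were 1.11 to 1.13 in the shSHCBP1 libraries and 1.01 to 1.02 in NC. Scaled to total counts alone, 9 genes rose and 5 fell in shSHCBP1_1 (21.4% and 3.45% of all genes), and 16 rose and 7 fell in shSHCBP1_2 (29.1% and 6.52% of all genes). The genes called under TMM, RLE and total counts alike were, in shSHCBP1_1, 4 of the 4 that rose and 5 of the 13 that fell: EPRS, LARS, QARS, IARS2 and VARS2. In shSHCBP1_2 they were 6 of the 8 that rose, all but YARS and MARS2, and 7 of the 12 that fell: EPRS, KARS, QARS, HARS2, IARS2, TARS2 and VARS2. The median of all genes tested stood at 0.15 and 0.17 under total counts. For the lists above, too, the balance of rises and falls moved. Of the 8 synthetases of the complex, 2 rose and 3 fell in shSHCBP1_1 and 2 rose and 3 fell in shSHCBP1_2 under total counts, with medians of -0.10 and -0.02. Of the 12 listed ATF4 targets, 6 rose and 2 fell in shSHCBP1_1 (median 0.13) and 8 rose and 1 fell in shSHCBP1_2 (median 0.28). In class I, 3 rose and 4 fell in shSHCBP1_1 and 5 rose and 3 fell in shSHCBP1_2, and in class II, 6 rose and 0 fell and 11 rose and 3 fell.

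**Figure D3:**
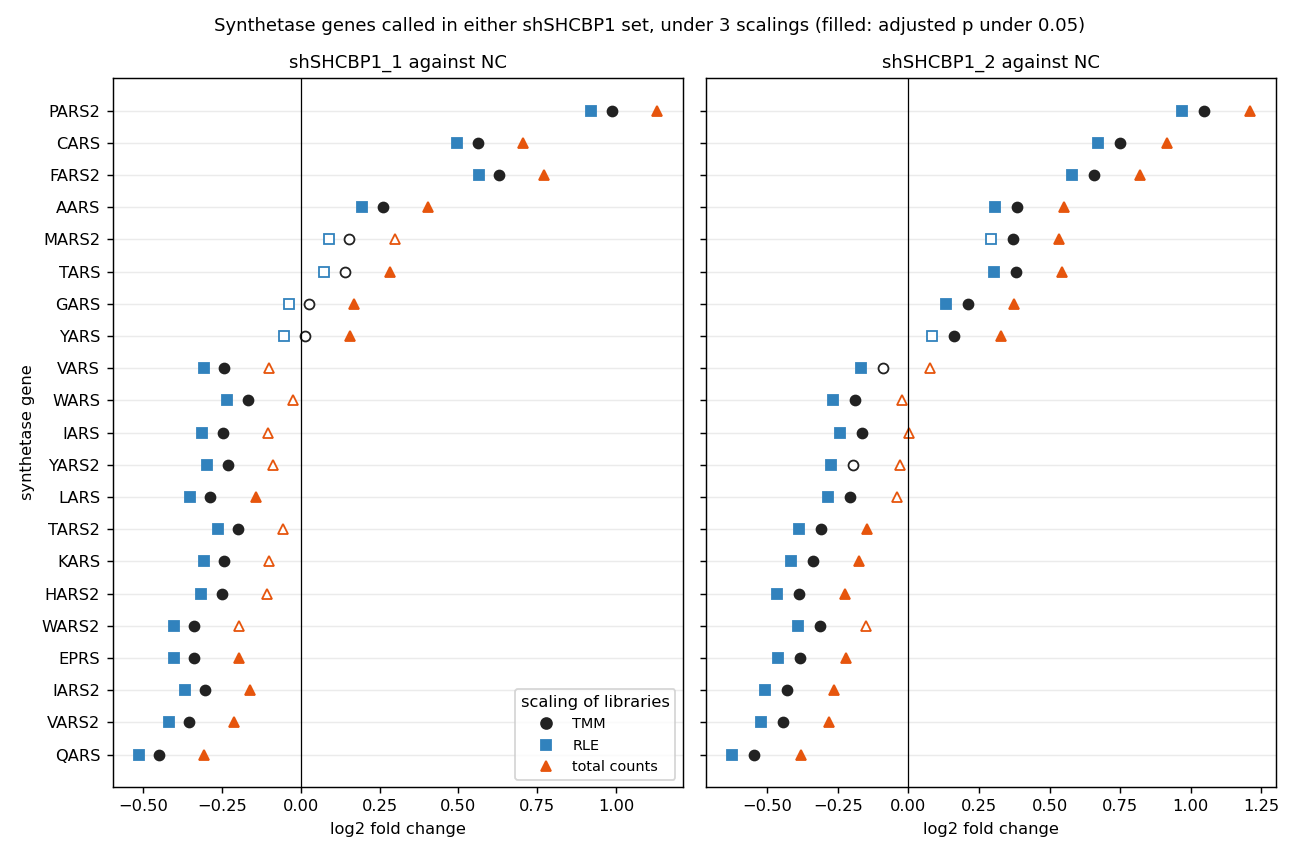
Log2 fold change against NC of synthetase genes called in either shSHCBP1 set (rows) under TMM, RLE and total-count scaling; filled symbols passed an adjusted p of 0.05. CARS lies at 0.50 (RLE), 0.56 (TMM) and 0.70 (total counts) in shSHCBP1_1 and QARS at -0.51, -0.45 and -0.31.

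Ratios of raw reads between a pair of genes in the same library do not depend on scaling. The pairs below were chosen after their values were seen, so they are a description with no test, and a ratio shows unequal change, not which gene changed. Reads of CARS per 100 reads of QARS were, in the median library, 46.9 in shSHCBP1_1, 56.1 in shSHCBP1_2, 57 in set 4 and 77.7 in set 2, against 23 for NC. The ratio was therefore about as large in set 4 as in shSHCBP1_2 and larger in set 2. Reads of TARS per 100 reads of EPRS were 91.2 in shSHCBP1_1, 112 in shSHCBP1_2, 149.7 in set 4 and 153 in set 2, against 64.8 for NC. Reads of HARS per 100 reads of HARS2 were 191 in shSHCBP1_1, 209 in shSHCBP1_2, 365 in set 4 and 325 in set 2, against 171 for NC. Every library of the 4 hairpin groups lay above every NC library in these 3 ratios.

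**Figure D4:**
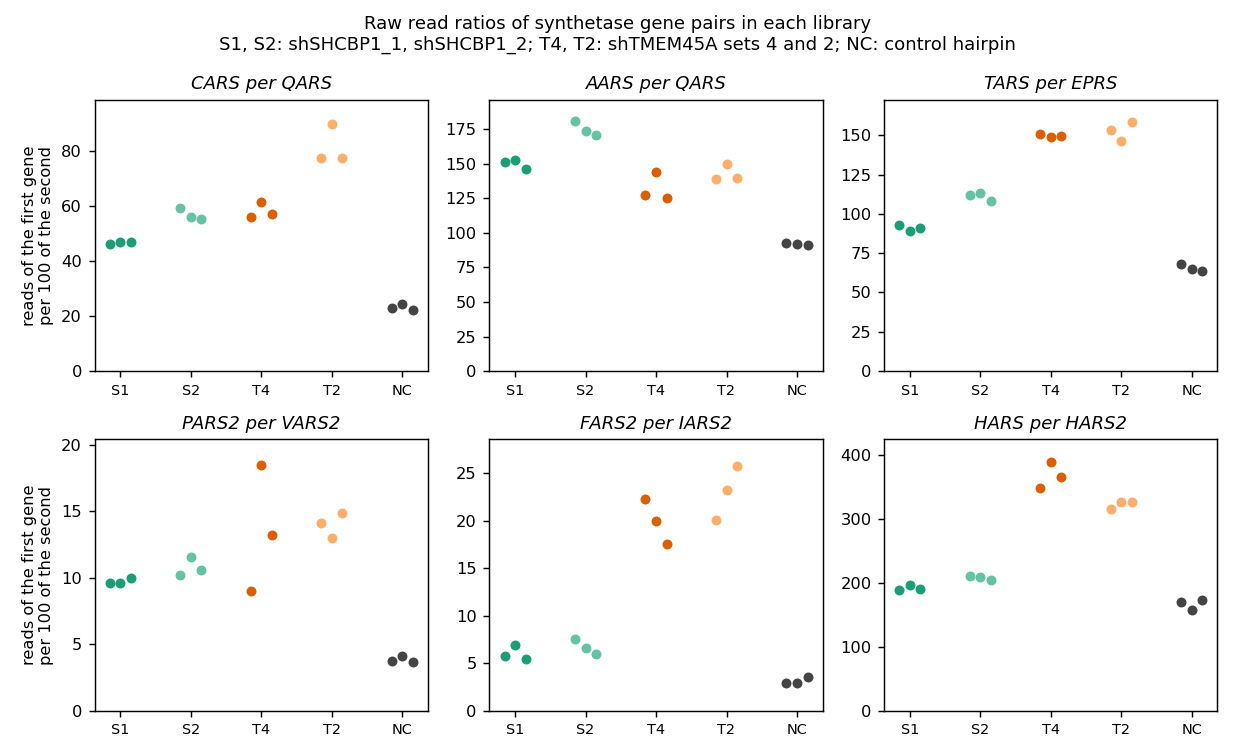
Reads of the first gene per 100 reads of the second in each library (points), for 6 pairs of synthetase genes, on axes that start at 0. For CARS per QARS the libraries labelled shSHCBP1 lie between 46.1 and 59.2 and the shTMEM45A libraries between 56.0 and 89.8, against 22.2 to 24.4 in NC.

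Around the synthetases, of 14 genes that act on charging or on the tRNA, 2 rose and 1 fell in shSHCBP1_1, where 9.34% and 10.5% of all genes did, and 4 rose and 2 fell in shSHCBP1_2, where 15.6% and 15.4% did. The balance depended on the scaling: RLE gave 2 rises and 3 falls in shSHCBP1_1 (6.67% and 16.2% of all genes) and 3 and 4 in shSHCBP1_2 (11.7% and 22% of all genes). Total counts gave 6 and 0 in shSHCBP1_1 and 5 and 2 in shSHCBP1_2. SEPHS2, which makes the selenium donor for selenocysteine, rose by 0.56 and 0.65 on the log2 scale, and PUS1, a pseudouridine synthase, by 0.36 and 0.52. AARSD1, an editing protein for mischarged alanine tRNA, fell in both (-0.57 and -0.64). Its call was lost in 5 of 6 fits without 1 library in shSHCBP1_1 (all but NC replicate 3; -0.63 to -0.48, adjusted p up to 0.141) and in 2 of 6 in shSHCBP1_2 (without NC replicate 1 or shSHCBP1_2 replicate 1; up to 0.0647). Of 30 integrated stress response genes, 8 rose and 11 fell in shSHCBP1_1, and 13 rose and 8 fell in shSHCBP1_2, with medians of 0.11 and 0.14 and the same shares of all genes beside them. Under total counts 18 rose and 7 fell in shSHCBP1_1, turning the balance, and 19 rose and 6 fell in shSHCBP1_2 (21.4% and 3.45%, and 29.1% and 6.52%, of all genes). CHAC1, which breaks down glutathione, rose most (2.40 and 3.07), and MTHFD2 (-0.59 and -0.66), a mitochondrial folate enzyme, and ATF3 (-0.61 and -0.56), a stress-induced transcription factor, fell. ATF4 itself stood at -0.13 (adjusted p = 0.0103) and -0.05 (adjusted p = 0.37) by edgeR.

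Set against set, 1 synthetase gene was higher and 0 were lower in shSHCBP1_2 than in shSHCBP1_1, where 0.499% of all genes were higher and 0.336% lower. At an unadjusted p under 0.05, 3 of the 38 were lower, and DESeq2 called 1. TARS had 199.8, 207 and 199 CPM in shSHCBP1_2, against 174, 172 and 167 CPM in shSHCBP1_1 (log2 fold change 0.24, SE 0.05, adjusted p = 0.013 by edgeR). The libraries did not overlap, but the call was lost in 6 of 6 fits that left out 1 library of these sets (adjusted p 0.0534 to 0.122).

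In the shTMEM45A sets, genes of mitochondrial synthetases fell more often than they rose, among transcriptomes in which most genes of any kind differed from NC. In set 4, 12 of the 38 rose and 21 fell, where 35.6% of all genes rose and 38.9% fell. In set 2, 12 rose and 18 fell, where 36.1% rose and 39.8% fell. In both sets together, 12 rose (32.6% of all genes) and 18 fell (36.2% of all genes). The median of the 38 was -0.20 in set 4 and -0.16 in set 2, beside -0.03 and -0.04 over all genes tested. Of the 21 cytosolic genes, 8 rose and 11 fell in set 4 and 8 rose and 8 fell in set 2, with medians of -0.16 and 0.00. Of the 17 mitochondrial genes, 4 rose and 10 fell in each set, with medians of -0.71 and -0.81. These medians shrank to -0.34 and -0.49 once a trend on transcript length was subtracted, as given below. Scaled to total counts, 10 rose and 24 fell of the 38 in set 4, where 29.5% of all genes rose and 45% fell, and 10 rose and 24 fell in set 2, where 30.3% rose and 45.7% fell. The median of all genes then stood at -0.23 and -0.23, and that of the mitochondrial genes at -0.90 and -1.00. As in the opening, both the basal breast and the kidney line markers also differed between these sets and NC, and their part was not tested.

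The largest rises were those of FARS2, CARS and PARS2, which also rose in the libraries labelled shSHCBP1. FARS2 had 22.8, 22.1 and 20.1 CPM in set 4 and 20, 24.1 and 26.2 CPM in set 2, against 7.22, 7.35 and 8.43 CPM in NC, without overlap (2.83-fold and 3.05-fold, adjusted p = 2.5e-11 and 4.07e-12 by edgeR). CARS had 118, 121 and 122 CPM in set 4 and 158, 152 and 142 CPM in set 2, against 57.8, 59.2 and 57.6 CPM in NC. Every library of both sets lay at more than 2 times the NC mean (log2 fold change 1.05, SE 0.06, adjusted p = 9.88e-17 and 1.37, SE 0.06, adjusted p = 8.12e-20, by edgeR). PARS2 had 7.48, 14.9 and 10.7 CPM in set 4 and 9.95, 8.31 and 11.9 CPM in set 2, against 4.65, 4.97 and 4.77 CPM in NC. The spread was wide in set 4, yet no library reached down to NC (1.19 and 1.07, adjusted p = 1.86e-06 and 1.13e-05).

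CARS2, the mitochondrial cysteine enzyme, rose beside its cytosolic counterpart. It had 67.9, 64.8 and 62.9 CPM in set 4 and 89.2, 69.4 and 71.1 CPM in set 2, against 42.3, 42.1 and 45.7 CPM in NC (log2 fold change 0.59 and 0.82). In the libraries labelled shSHCBP1 it had stood at -0.05 and -0.03 (adjusted p = 0.745 and 0.801). RARS (0.42 and 0.51), SARS (0.40 and 0.53), GARS (0.33 and 0.52), TARS (0.36 and 0.47), FARSB (0.40 and 0.38), the beta subunit of the cytosolic phenylalanine enzyme, and YARS2 (0.39 and 0.31), the mitochondrial tyrosine enzyme, rose less. FARSA, the alpha subunit, stood at 0.08 and 0.08 (adjusted p = 0.252 and 0.208). AARS (0.24 and 0.20) and YARS (0.14 and 0.35) completed the 12. Scaled to total counts, AARS no longer passed in either set (0.05 and 0.01), nor did YARS in set 4 (-0.05) or YARS2 in set 2 (0.12).

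SARS2, the mitochondrial serine enzyme, fell most. Its raw counts were 7, 7 and 10 in set 4 and 6, 4 and 4 in set 2, against 65, 60 and 71 in NC. That is 0.585 ± 0.155 CPM and 0.336 ± 0.0866 CPM, against 4.54 ± 0.354 CPM (log2 fold change -2.95, SE 0.31, adjusted p = 6.11e-10 and -3.72, SE 0.34, adjusted p = 2.7e-11, by edgeR). In the libraries labelled shSHCBP1 it averaged 3.90 ± 0.186 and 3.88 ± 0.888 CPM and did not pass (adjusted p = 0.568 and 0.5), while cytosolic SARS rose in both shTMEM45A sets. HARS2 had 22.2, 21.8 and 22.5 CPM in set 4 and 25.5, 23.2 and 22.8 CPM in set 2, against 53.7, 54.7 and 54.5 CPM in NC. Every library lay more than 2 times below the mean of NC (0.408-fold and 0.439-fold, adjusted p = 3.99e-16 and 2.21e-15).

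IARS2 had 103, 111 and 115 CPM in set 4 and 99.8, 104 and 101 CPM in set 2, against 245, 249 and 234 CPM in NC, and LARS2, for leucine, had 25.1, 20.3 and 20.9 CPM in set 4 and 23.5, 21.5 and 24.3 CPM in set 2, against 55.2, 50.2 and 53.4 CPM in NC. Both fell by more than 2-fold in each set, with no overlap (log2 fold change -1.15 and -1.25 for IARS2, -1.26 and -1.20 for LARS2). The mitochondrial enzymes for methionine (MARS2, -0.86 and -1.27), glutamate (EARS2, -0.95 and -0.87), alanine (AARS2, -0.79 and -0.93), asparagine (NARS2, -0.71 and -0.81) and valine (VARS2, -0.62 and -0.81) fell as well. RARS2, TARS2 and WARS2 did not pass in either set, with log2 fold changes between -0.18 and 0.08. Of the mitochondrial genes that fell, IARS2, HARS2 and VARS2 had also fallen in both shSHCBP1 sets, and MARS2 had been higher in shSHCBP1_2.

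Among cytosolic genes, LARS (-0.92 and -0.90), EPRS (-0.84 and -0.75) and IARS (-0.76 and -0.65) fell most. LARS had 121, 126 and 123 CPM in set 4 and 122, 122 and 132 CPM in set 2, against 235, 232 and 232 CPM in NC. QARS fell less (-0.28 and -0.44), to 210.1, 198 and 214 CPM in set 4 and 204, 169.7 and 183 CPM in set 2, against 251, 243 and 259.5 CPM in NC. NARS (-0.59 and -0.36), VARS (-0.27 and -0.33), DARS (-0.19 and -0.25) and HARS (-0.16 and -0.24), for asparagine, valine, aspartate and histidine, fell in both sets, and MARS (-0.24), WARS (-0.20) and TARSL2 (-0.25), another cytosolic threonine enzyme, in set 4. In set 2, MARS (0.00), WARS (0.03) and TARSL2 (-0.13) did not pass. Without 1 library, the calls of DARS were lost (set 4 without NC replicate 2 or set 4 replicate 2, adjusted p up to 0.0792; set 2 without set 2 replicate 1, 0.0584), and in set 4 those of HARS (without NC replicate 3 or set 4 replicate 1, up to 0.0877) and TARSL2 (without NC replicate 3, 0.0664). Of the 8 synthetases of the complex, 1 rose and 6 fell in set 4, and 1 rose and 5 fell in set 2 (medians -0.26 and -0.34). RARS was the gene that rose, and KARS had 275, 269 and 269 CPM in set 4 and 252, 277 and 254 CPM in set 2, against 268, 264 and 273 CPM in NC, overlapping groups (adjusted p = 0.774 and 0.431). Of the 12 listed ATF4 targets, 6 rose and 6 fell in set 4, and 6 rose and 4 fell in set 2 (medians -0.03 and 0.11). Under total counts 4 rose and 6 fell in set 4 and 5 rose and 6 fell in set 2. Of 18 class I genes, 5 rose and 11 fell in set 4, and 5 rose and 9 fell in set 2. Of 19 class II genes, 7 rose and 9 fell in set 4, and 7 rose and 8 fell in set 2. Beside all these counts, 35.6% of all genes rose and 38.9% fell in set 4, and 36.1% rose and 39.8% fell in set 2. The class II counts lay near those shares.

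In the shTMEM45A sets, log2 fold changes fell with transcript length. Human lengths were not used here, so the length of the mouse transcript of the same symbol stood in, for 12716 genes and all 38 members. Across those genes, which are not independent replicates, Spearman's rho of length and log2 fold change was -0.49 in set 4 and -0.47 in set 2, beside -0.07 in shSHCBP1_1 and -0.02 in shSHCBP1_2. The median length was 3119 nt for the 38 and 3173 nt for all. With the trend on length subtracted, the median of the mitochondrial genes was -0.34 in set 4 and -0.49 in set 2. That of the cytosolic genes was -0.25 and -0.07. In set 4 the medians of the compartments thus lay much closer together than before (-0.71 and -0.16). Of the 17 mitochondrial genes, 7 then lay above 0 in set 4 and 6 in set 2, and of the 21 cytosolic genes 8 and 8. MARS2, with the longest such transcript of the 38, then stood at 0.00 and -0.38, and IARS2 at -0.68 and -0.76. HARS2 (-1.23 and -1.11) and CARS (1.08 and 1.42) moved little. FARS2 shrank to 1.20 and 1.31, and SARS2 stood lower than before, at -3.36 and -4.14. Several of the smaller rises shrank: CARS2 then stood at 0.19 and 0.42, RARS at 0.12 and 0.20, FARSB at 0.07 and 0.04, GARS at 0.14 and 0.33, and YARS at 0.09 and 0.31. With longer transcripts, SARS (0.52 and 0.67), TARS (0.58 and 0.71) and AARS (0.75 and 0.73) stood higher than before. The order of the cytosolic falls changed too. LARS (-0.70 and -0.66), EPRS (-0.45 and -0.34) and IARS (-0.46 and -0.33) shrank. NARS (-0.67 and -0.44), HARS (-0.51 and -0.60) and DARS (-0.47 and -0.53) stood lower than before and, in both sets, below EPRS and IARS.

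**Figure D5:**
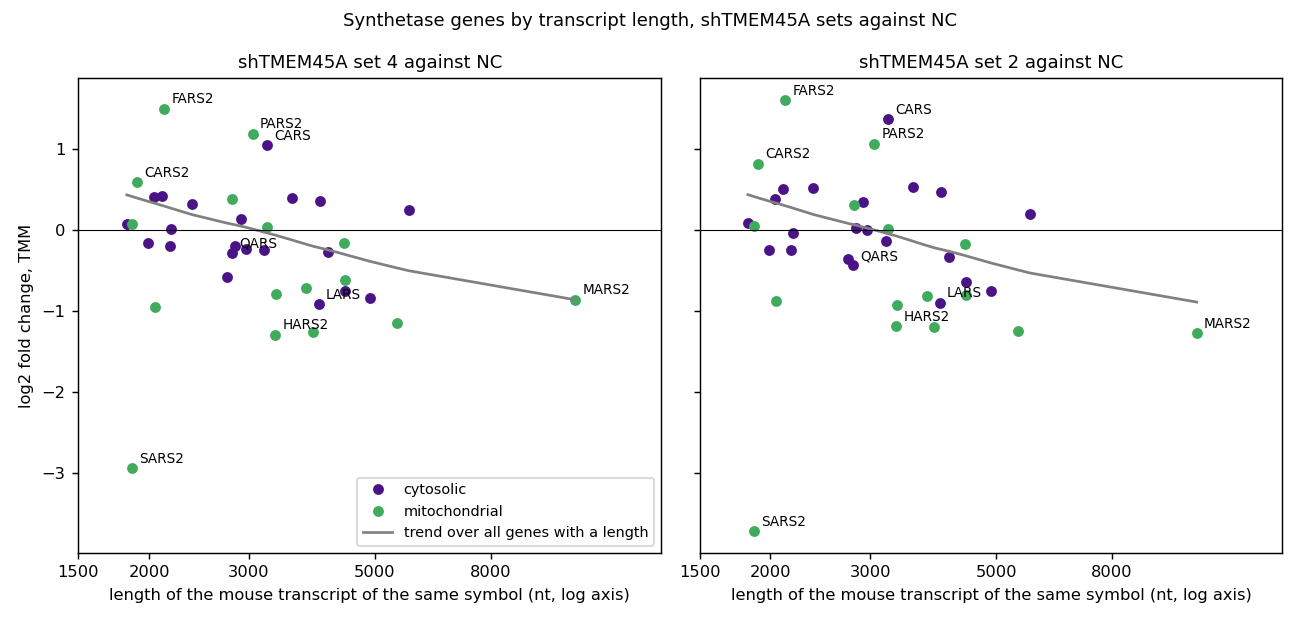
Log2 fold change of 37 of the 38 synthetase genes against NC in set 4 (left) and set 2 (right), by the length of the mouse transcript of the same symbol (x axis, log scale), with the trend over 12716 genes as a line. SARS2 lies far below the line among the short transcripts, CARS, FARS2 and PARS2 lie above it, and MARS2 in set 4 lies on it.

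The scaffold genes of the complex rose in both shTMEM45A sets, 3 of 3, and under total counts 3 in set 4 and 2 in set 2. EEF1E1 rose most (1.81 and 1.90), then AIMP1 (0.76 and 0.82) and AIMP2 (0.53 and 0.34). With the length trend subtracted, AIMP1 (-0.18 and -0.16) and AIMP2 (-0.36 and -0.57) lay below 0, and of the 3 only EEF1E1 stayed above 0. Of the 14 accessory genes, 9 rose and 4 fell in set 4, and 10 rose and 4 fell in set 2. Beside them, 35.6% and 38.9% of all genes rose and fell in set 4, and 36.1% and 39.8% in set 2. The accessory medians were 0.37 and 0.50, and 0.12 and 0.06 with the length trend subtracted, where 8 and 7 of the 14 lay above 0. Under total counts 8 rose and 4 fell in each set. PUS1 (1.71 and 1.87) and DTD1 (1.48 and 1.50), which removes D-amino acids from tRNA, rose most, and AARSD1 (-1.38 and -1.64) and SEPSECS (-0.85 and -1.05), the last enzyme of selenocysteine synthesis, fell most. Of the 30 integrated stress response genes, 17 rose and 11 fell in set 4, and 18 rose and 9 fell in set 2, where 35.6% and 38.9%, and 36.1% and 39.8%, of all genes rose and fell. Their medians were 0.31 and 0.31, and 0.02 and 0.13 with the length trend subtracted; under total counts 15 rose and 12 fell in set 4 and 15 rose and 12 fell in set 2. ATF4 rose (1.43 and 1.51), as did CHAC1 (2.45 and 2.92) and NUPR1 (3.12 and 3.83), a stress-induced chromatin protein. ASNS, the asparagine synthetase and a standard ATF4 target, had 1.44, 1.32 and 3.36 CPM in set 4 and 1.67, 1.34 and 0.944 CPM in set 2, against 12.3, 14.5 and 15 CPM in NC, and fell (-2.78 and -3.39). DDIT4, an inhibitor of mTOR signalling, fell as well (-1.16 and -2.01). WARS is a known target of gamma interferon. Of 9 tested genes of that response, 0 rose and 0 fell in each shSHCBP1 set, 5 rose and 4 fell in set 4, and 4 rose and 3 fell in set 2 (GBP2 2.65 and 2.71, TAP1 -1.65 and -2.07). GBP2 was near the floor in NC, with 14 counts summed over its libraries, against 86 in set 4 and 91 in set 2. Another of the genes that rose had 0 counts in NC. Such genes passed the filter on low counts through the shTMEM45A libraries, so their rises are no independent result. At an unadjusted p under 0.05, 2 of the 9 passed in shSHCBP1_1 and 2 in shSHCBP1_2.

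Set against set, 5 synthetase genes were higher and 0 lower in set 2 than in set 4, where 1.95% of all genes were higher and 3.32% lower. At an unadjusted p under 0.05, 3 of the 38 were lower, and DESeq2 called 0. The 5 were CARS, MARS, WARS, YARS and GARS, all cytosolic. CARS had 158, 152 and 142 CPM in set 2, against 118, 121 and 122 CPM in set 4 (log2 fold change 0.33, SE 0.05, adjusted p = 0.000185 by edgeR). MARS had 186, 189 and 184 CPM in set 2, against 159.6, 154 and 160.3 CPM in set 4, and YARS had 530.0, 520.4 and 537 CPM in set 2, against 472, 447 and 448 CPM in set 4. None of the 3 overlapped between the sets. Only CARS passed under each alternative run for it; fitted on these groups alone, MARS (adjusted p = 0.0845), YARS (0.0695), WARS (0.18) and GARS (0.184) did not pass. Without set 4 replicate 2, WARS (0.115) and GARS (0.0665) did not pass.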

How the data were processed

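The authors' deposited files are 2 tables of counts by gene symbol with 58735 rows each; all values are whole and library totals differ, so they were taken as raw. NC and the libraries labelled shSHCBP1 share a table; the shTMEM45A libraries have the other. Per the labels' protocols, polyadenylated RNA was copied with random primers by a NEBNext Ultra kit, which does not mark the strand, and was sequenced as paired ends. The sources used here do not give the aligner or counter. The labels give the mouse as organism and the submitters' processing notes name mm10, whereas the symbols are human. The values were read as human, and with the build unknown no coordinates or sequences are printed.

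Repeated names and names that had become dates were dropped (200, on 1768 rows), and 56967 remained. No library column was left unused. For 12 columns the name identified the library. Of the shTMEM45A columns, those with the number 2 match set 2 of the labels, and set 4 is set 1 of the labels by elimination, so its replicate numbers name columns only. No pair of libraries of a group agreed within sampling noise.

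The filter was filterByExpr with a count minimum of 10 and a total minimum of 15 (19051 genes). Libraries were scaled by TMM, and edgeR 4.0.16 (R 4.3.3) fitted 5 group means to all 15 libraries at once. Calls come from its quasi-likelihood F test, adjusted by Benjamini-Hochberg over all genes, at a threshold of 0.05. The SE of a log2 fold change is its size over the root of F. Each hairpin set was compared with NC, and set with set within a target. The procedure was tested on simulated data. Alternatives were RLE and total-count scaling, no filter, a mean CPM of at least 5, DESeq2 1.42.0, only the compared groups, a replicate block and leaving out each library. The fit of the 9 libraries in the table with NC and the trend on mouse transcript length (lowess, span 0.3) were added after the data were seen. The members and gene lists were chosen with earlier results of these data known. Members were named with values where they passed in both sets of a target, up to 8 in each direction. Up to 3 per direction were named for set against set and up to 2 per list. HARS, HARS2, KARS, GARS, QARS, WARS and TARSL2 are named for their roles. Others complete a count and were chosen after their values were seen. Of the 38 genes, 1 is included in counts and medians and is not reported singly here.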

Additional observations from a re-analysis of the deposited data

Results flagged for a closer look

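A handful of synthetase genes differed between the pair of hairpin sets of a target, by the edgeR test of the difference itself. TARS was 0.24 higher on the log2 scale in shSHCBP1_2 than in shSHCBP1_1. Between the shTMEM45A sets, CARS was 0.33 higher in set 2 than in set 4, MARS 0.24, WARS 0.23, YARS 0.22 and GARS 0.19. All of them are cytosolic enzymes, and GARS serves the mitochondrion as well. The TARS call was lost in 6 of 6 fits that left out 1 library. MARS, WARS, YARS and GARS did not pass when only the compared groups were fitted, and CARS alone held in every setting run for it. The set 4 libraries could not be tied to a stated hairpin, and the causes were not tested.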

How the results depend on the processing

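In comparisons with NC, the counts of synthetase genes that passed stayed within 1.5 times of those reported under RLE scaling, both filters, DESeq2, the compared groups alone and the replicate block. Total-count scaling moved them: in shSHCBP1_1 to 9 higher and 5 lower (21.4% and 3.45% of all genes), and in shSHCBP1_2 to 16 higher and 7 lower (29.1% and 6.52%). Leaving out 1 library gave 4 to 5 higher and 9 to 11 lower in shSHCBP1_1, 7 to 8 and 10 to 12 in shSHCBP1_2, 12 to 12 and 19 to 21 in set 4, and 12 to 13 and 17 to 20 in set 2. Between sets, shSHCBP1_2 against shSHCBP1_1 gave 3 higher (total counts), 2 (mean CPM of at least 5), 4 (DESeq2), 9 (compared groups alone), 2 (replicate block), 8 (the 9 libraries in the table with NC) and 0 to 0 without 1 library, and 1 (DESeq2), 4 (compared groups alone), 2 (the 9 libraries) and 0 to 0 lower. All genes moved as well in that comparison. Under total counts 0.856% of them were higher and 0.205% lower, and with the compared groups alone 5.09% and 4.44%. Set 2 against set 4 gave 8 higher (mean CPM of at least 5), 1 (compared groups alone) and 3 to 7 without 1 library, and 1 (no filter) and 0 to 1 lower. With the compared groups alone, 0.263% of all genes were higher and 0.509% lower in set 2. Several directions turned, most of them for log2 fold changes near 0. Among those that turned, MARS2 (-0.86) and YARS (0.14) in set 4 and IARS (-0.16) in shSHCBP1_2 had passed the threshold. By RLE scaling and by DESeq2, GARS (-0.038 and -0.038) and TARSL2 (-0.011 and -0.011) in shSHCBP1_1, SHCBP1 in shSHCBP1_2 (-0.071 and -0.071) and KARS in set 4 (-0.011 and -0.011) turned. By total counts, HARS (0.093 in shSHCBP1_1 and 0.093 in shSHCBP1_2), IARS (0.00040) and TMEM45A (0.040) in shSHCBP1_2, KARS (-0.18) and YARS (-0.055) in set 4 and WARS (-0.16) in set 2 turned. Without a filter KARS in set 4 (-0.0027) and WARS in set 2 (-0.0069) did, and with a mean CPM of at least 5 KARS in set 2 (0.014). Without the length trend, turns were counted only for genes that had passed, which gave MARS2 in set 4 (0.0018). Genes that had not passed turned there too. Among them were FARSA (-0.36 and -0.35), RARS2 (-0.34 and -0.36) and WARS2 (0.14 and 0.14) in set 4 and set 2, and KARS (-0.25) in set 4. Leaving out 1 library gave -0.032 to 0.042 for SHCBP1 in shSHCBP1_2, -0.0022 to 0.029 for KARS in set 4 and -0.0088 to 0.076 for WARS in set 2. The causes were not tested. Same-numbered libraries did not deviate together (r from -0.04 to 0.04 over genes), and the main fit did not pair them. This does not show whether they were prepared together. A fit with the replicate block, on the 12 libraries with a label number, gave 5 higher and 13 lower in shSHCBP1_1, 8 and 12 in shSHCBP1_2 and 12 and 18 in set 2; set 4 has no such number. A trend on human transcript length was planned and not run, since no human lengths were used here. Genes such as PARS2 and SARS2 rest on few reads, which limits their precision.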

Other observations

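Names related to the synthetase genes can share their reads, since the kit does not mark the strand. Of 14 pseudogene names in the tables, all held at most 0.030% of the counts of their parent gene in every group. Of 6 antisense, divergent or intronic names, 3 stayed under 1%. GARS-DT, divergent to GARS, held 12% of the GARS counts in shSHCBP1_1, 8.83% in shSHCBP1_2, 6.80% in set 4 and 5.48% in set 2, against 13.1% for NC. DARS-AS1 held at most 7.01% of the DARS counts. CARS-AS1 had 80 counts in shSHCBP1_1, 46 in shSHCBP1_2 and 0 in either shTMEM45A set, against 46 in NC, summed over 3 libraries each. This was at most 1.88% of the CARS counts.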
